A study of Mus musculus with 14 samples.

Results

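The nuclear genes of respiratory complexes II to V were followed in macrophages that had entered the inflamed central nervous system of mice. Members were found by their symbols: Sdha, Sdhb, Sdhc, Sdhd, Cyc1 and Cycs, and every symbol beginning with Uqcr, Cox4i, Cox5, Cox6, Cox7, Cox8 or Atp5. The rule took 50 of the 19940 genes in the deposited table: 4 of complex II, 9 of complex III, 16 of complex IV, 17 of complex V, the electron carrier Cycs, the supercomplex factor Cox7a2l, the ATP synthase inhibitor Atp5if1 and the pseudogene Cox5b-ps. Of the 50, 47 had a normalised count of at least 10 in at least 7 libraries and were tested. The other members, Cox7b2, Cox8b and Cox5b-ps, did not exceed a normalised count of 5.59 in any library.

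Cells came from mixed bone marrow chimeras with experimental autoimmune encephalomyelitis, the standard mouse model of multiple sclerosis, taken at peak disease. Lethally irradiated hosts had received equal parts of marrow from wild-type donors carrying CD45.1 (wt) and from donors carrying CD45.2 with the alleles CCR2creERT2/+ and mcat lsl/wt (mCAT). CreERT2 is a recombinase that acts after tamoxifen, here driven from the Ccr2 locus of monocytes, and mcat is a catalase directed to mitochondria behind a stop cassette (lsl). Tamoxifen is given as the treatment of all 14 libraries, 7 wt and 7 mCAT, so wt cells had it too, without the recombinase. The genotypes therefore also differ in the CD45 allele and in 1 copy of Ccr2, and no source used here gives ages. RNA of sorted monocyte-derived macrophages was sequenced with Smart-seq2, which copies full-length polyadenylated RNA. Nothing in the labels says that the libraries of a group came from separate animals, so p-values measure the spread between libraries. The library codes share a stem in 6 mCAT and 6 wt libraries, called pairs here, and begin with C1 in 8 libraries and with C2 in 6. What the stems and series stand for is not given.

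Electrons from succinate enter the chain at complex II, the only complex built from nuclear genes alone, which is also an enzyme of the citric acid cycle. Complex III passes electrons from ubiquinol to cytochrome c, and complex IV hands them to oxygen. Both pump protons, and complex V, the ATP synthase, lets the protons flow back through a rotor to make ATP. In macrophages succinate oxidation at complex II is known to feed reverse electron flow and mitochondrial superoxide, from which the hydrogen peroxide that catalase removes is made.

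Promoter sequences show how the genes are built upstream, because the factors NRF1, the ETS protein GABP and YY1 are the classical activators of this gene group. RefSeq promoters on GRCm38.p6, which is not the build of the expression values (GRCm39), were matched for 37 of the 50 members. Windows ran from 250 bases before to 50 after the start site, and both strands were searched. The NRF1 motif, searched as GCGCANGCG with N any base, was found in 14 of 37 members (37.8%), in 7.0% of 27025 genes with a promoter and in 15.7% of 9518 tested genes. The ETS motif CCGGAAG was found in 12 members (32.4%), in 9.9% of all genes and in 20.8% of tested genes. The YY1 motif AAGATGGCG was found in 2 members, Atp5mf and Atp5pf (5.4% of members, 1.6% of all genes and 3.7% of tested genes). No motif was required to be free of overlap with another. The 120 bases before the start site of 4 members are printed 5′ to 3′ on the gene's strand, with motifs in capitals: Sdha holds 3 NRF1 motifs, Cox6a1 both kinds, Atp5f1e an ETS motif (CTTCCGG where it lies on the other strand), and Cox7a2 neither. Sdha lies at chr13:74350241-74350360, Cox6a1 at chr5:115348959-115349078, Atp5f1e at chr2:174464102-174464221 and Cox7a2 at chr9:79759854-79759973, all on the minus strand.
Sdha: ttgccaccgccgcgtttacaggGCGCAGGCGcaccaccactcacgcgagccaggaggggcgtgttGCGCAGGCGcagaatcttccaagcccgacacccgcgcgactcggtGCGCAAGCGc
Cox6a1: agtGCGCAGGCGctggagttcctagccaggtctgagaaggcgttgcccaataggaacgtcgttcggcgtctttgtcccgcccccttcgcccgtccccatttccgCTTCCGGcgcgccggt
Atp5f1e: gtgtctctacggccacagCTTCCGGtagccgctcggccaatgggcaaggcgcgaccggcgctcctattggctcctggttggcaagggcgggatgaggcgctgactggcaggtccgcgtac
Cox7a2: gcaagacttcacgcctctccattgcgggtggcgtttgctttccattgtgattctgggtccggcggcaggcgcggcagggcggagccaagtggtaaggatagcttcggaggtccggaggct
In the genotype comparison, the 14 tested members with an NRF1 motif had a median log2 difference (mCAT minus wt) of -0.23 and the 21 without it -0.205, while the 12 with an ETS motif stood at -0.26 and the 23 without it at -0.19. A match describes the letters of a window and no binding was measured.

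Most members were abundant. Counts were divided by mRNA length to compare genes, giving normalised counts per kilobase averaged over the 14 libraries, with mRNA lengths from GENCODE M21. The median gene tested stood at 178 per kilobase. Complex II had a median of 4673, complex III 6896, complex V 8023 and the ubiquitous subunits of complex IV 8826. Atp5f1b, the catalytic beta subunit of the ATP synthase head, was highest at 20868 ± 3284 (SD, n = 14). Cox4i1, a regulatory subunit of complex IV, followed at 20139 ± 3660, and neither this gap nor that to Cox8a (19106 ± 1859) exceeded the SD. Sdhc, a membrane anchor of complex II with a long untranslated part, was lowest of the subunits that are not alternative isoforms at 932 ± 108. Within complex II it lay below Sdhb, the iron-sulfur subunit (8524 ± 818), a gap larger than either SD. Uqcrb (11116 ± 2059) and Uqcrc2 (2873 ± 285) bounded complex III, and in complex V Atp5mf (2802 ± 589) and Atp5me (2820 ± 574) were lowest, with a gap far below their SD. These bounds depend on the transcript taken for a gene: on its longest principal transcript Uqcrq would stand at 2446 in place of 9185, Atp5mk at 1154 in place of 8713 and Atp5mc1 at 1006 in place of 7956. The carrier gene Cycs stood at 2397 ± 612.

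Alternative isoforms known from muscle, testis or lung were close to absent. Cox4i2 made up 0.12% ± 0.06 of the normalised counts of Cox4i1 and Cox4i2 together in wt and 0.11% ± 0.06 in mCAT libraries (SD, n = 7 each). Cox6a2 held 0.38% ± 0.26 and 0.31% ± 0.26 of subunit 6A, and Cox6b2 0.42% ± 0.06 and 0.44% ± 0.18 of subunit 6B. Cox7a1 had the largest share of these, 1.57% ± 0.51 of subunit 7A in wt and 1.56% ± 0.46 in mCAT. Cox8b reached 5.14 normalised counts at most, and Cox7b2 was listed at 0 in 13 of 14 libraries. Between genotypes these shares differed by less than their SD. The rotor ring is made of identical c subunits encoded by 3 genes. Atp5mc1 gave 39.4% ± 8.6 of their counts in wt and 38.4% ± 5.7 in mCAT, Atp5mc2 41.5% ± 8.7 and 43.0% ± 7.3, and Atp5mc3 19.1% ± 2.3 and 18.6% ± 1.9.

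No member passed the test between genotypes, although most estimates lay on the mCAT-lower side. The catalase gene Cat stood at 2155 ± 626 normalised counts in the wt and 2831 ± 808 in the mCAT libraries (SD, n = 7 each; adjusted p = 0.878, limma with Benjamini-Hochberg adjustment over 12096 genes), and whether transgene reads are among them is not given. All 6 pairs had more of it in mCAT, and with the stem as a block its estimate was 0.29 (limma adjusted p = 0.390). Of all genes tested, 24 (0.198%) had an adjusted p under 0.05, and of the 47 members 0. With the stem as a block in the same test, 39 genes (0.322%) and again 0 members passed. The lowest adjusted p of a member was 0.794 without the block and 0.310 with it. At an unadjusted p under 0.05, 19 members were lower in mCAT, where 3.03% of all genes were, and 0 were higher (2.33% of all genes). With the block these numbers were 13 (4.24% of all genes) and 0 (4.99%). Under the block wt 1 and mCAT 3, which have no partner, do not inform the genotype estimate, which rests on the 6 pairs. The 2 fits therefore differ in the libraries used as well as in the pairing. Estimates lay below 0 for 41 of 47 members, against 50.3% of all genes. Every mCAT library lay below every wt library in 0 members and in 0.116% of all genes. For the counts of mCAT libraries below the lowest wt library that follow, no share over all genes is given. In bulk RNA, fewer cells that carry a transcript and less of it per cell cannot be told apart.

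The median log2 difference of the members, mCAT minus wt on the deposited scale, was -0.21, against -0.00 for all genes, and -0.17 with the block. Genotype estimates, SE and intervals below come from the fit without the block, which ignores the pairs, unless the block is named. Complexes differed in their medians: -0.04 for complex II, -0.27 for complex III, -0.21 for complex IV and -0.23 for complex V. Their order depends on the scale and the filter, since on log2(normalised count + 1) complex IV stood at -0.33, complex III at -0.28 and complex V at -0.24, and with a minimum of 100 normalised counts complex IV stood at -0.29. Subunits of complexes II, III and V that catalyse or form the core (10 genes) had a median of 0.04, with 4 below and 6 above 0. The 5 small subunits of complex III stood at -0.32 and the 5 membrane accessory subunits of complex V at -0.36. All 10 of these small-subunit genes had an unadjusted p under 0.05 without the block, and 7 had with it (3 in complex III and 4 in complex V). Of all genes, 3.03% were lower in mCAT at that p without the block and 4.24% with it. Other classes had fewer without the block: 5 of the 10 ubiquitous subunits of complex IV and, in complex V, 2 of 4 in the peripheral stalk, 1 of 3 in the central stalk and 0 of 3 in the rotor ring.

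**Figure D1:**
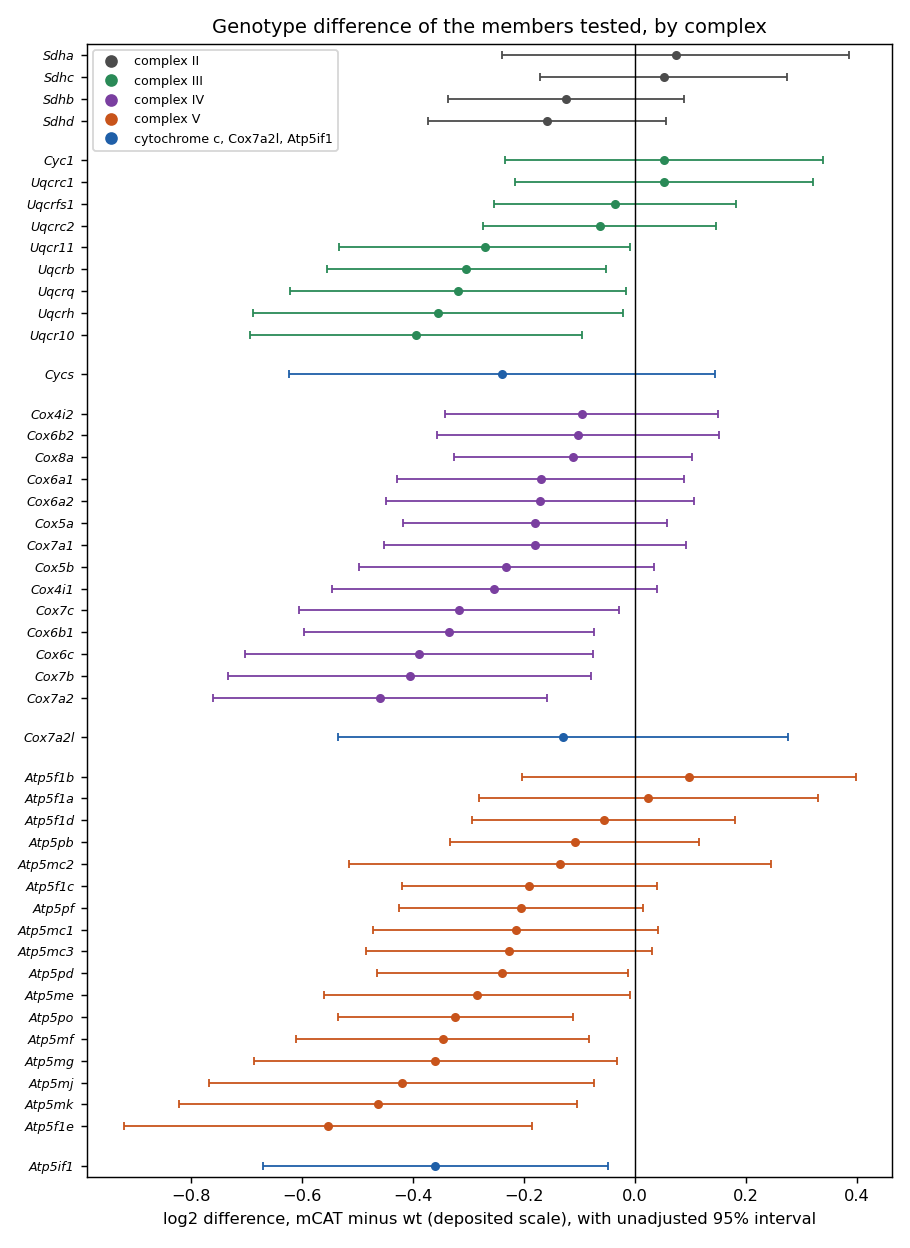
Log2 difference between mCAT and wt (horizontal axis, deposited scale) for the 47 members tested, grouped by complex and coloured by it; bars are unadjusted 95% intervals from limma. All 14 estimates of complex IV lie below 0, while Atp5f1b, Atp5f1a, Cyc1, Uqcrc1, Sdha and Sdhc lie above it.

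Complex II, succinate dehydrogenase, had 2 genes below and 2 above 0, and 0 of 4 reached an unadjusted p under 0.05. Sdha, the flavoprotein that oxidises succinate, ran from 8144 through a median of 11441 to 13865 normalised counts in wt and from 8830 through 12627 to 13442 in mCAT. These ranges covered each other almost wholly, and the log2 difference was 0.07 (95% interval -0.24 to 0.39). Sdhb ran from 9032 through 10351 to 11068 in wt and from 8060 through 9399 to 10344 in mCAT, with 3 mCAT libraries below the lowest wt library (log2 difference -0.12, interval -0.34 to 0.09). Sdhc, an anchor that holds the complex in the membrane, averaged 2896 ± 303 in wt and 3015 ± 392 in mCAT (log2 difference 0.05). Sdhd, its partner anchor, averaged 7012 ± 452 and 6303 ± 824 (-0.16, interval -0.37 to 0.06). For this gene 5 mCAT libraries lay below the lowest wt library, while mCAT 1 had the highest value of either genotype (7684). The mCAT partner had the smaller Sdhd value in 5 of 6 pairs.

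In complex III the core and the electron-carrying subunits had estimates near 0, and the small subunits stood lower in mCAT without passing the test. Uqcrc1, a core protein, averaged 11726 ± 2159 in wt and 12032 ± 1188 in mCAT (log2 difference 0.05, interval -0.22 to 0.32), and Uqcrc2 5574 ± 613 and 5320 ± 467 (-0.06). Cyc1, the cytochrome that delivers electrons to cytochrome c, gave 5580 ± 1074 and 5746 ± 801 (0.05), and the Rieske protein gene Uqcrfs1 5820 ± 794 and 5636 ± 346 (-0.04). Uqcr10 encodes a small subunit beside cytochrome c1. Its wt values ran from 1689 through 2037 to 2997 and its mCAT values from 1160 through 1730 to 2072. The 3 lowest of the 14 values were mCAT, but the groups overlapped, and the log2 difference was -0.39 (SE 0.14, limma adjusted p = 0.878). Uqcrh, the acidic hinge protein at the cytochrome c docking site, averaged 4739 ± 1182 and 3636 ± 694 (-0.35, SE 0.16), and Uqcrq 4127 ± 692 and 3313 ± 720 (-0.32, SE 0.14). Uqcrb, which contributes to ubiquinone binding, averaged 6597 ± 1115 and 5297 ± 632 (-0.30, SE 0.12), and 5 of 7 mCAT libraries lay below the lowest wt library. Uqcr11 had the smallest difference of the 5 (-0.27, SE 0.12).

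Cycs encodes cytochrome c, which also triggers the apoptosome once released. It ran from 5837 through 7885 to 11240 in wt and from 4137 through 7028 to 9136 in mCAT. All 6 mCAT partners were lower, with a median ratio of 0.920 to wt, but the groups overlapped, and the interval of the log2 difference of -0.24 ran from -0.62 to 0.15. Only 4 members were lower in 6 of 6 pairs (2.63% of all genes were): Cycs, Cox6b1, Atp5pf and Atp5if1. In the other direction 0 members were higher in all 6 (2.74% of all genes).

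Every tested subunit of complex IV had an estimate below 0, 5 of 14 with an unadjusted p under 0.05. Cox7a2 is the ubiquitous subunit 7A (ENSMUSG00000032330, chromosome 9). Its wt values ran from 4681 through 5652 to 8138 and its mCAT values from 3271 through 4312 to 5864. Of the 7 mCAT libraries, 6 lay below the lowest wt library, and mCAT 5 lay inside the wt range. The log2 difference was -0.46 (SE 0.14, limma adjusted p = 0.813), or -0.32 with the block. Cox7b, an X-linked subunit, averaged 5211 ± 1454 and 3848 ± 691 (-0.41, SE 0.16), with wt 1 alone at 8211 and the other wt libraries at or below 5808. Cox6c stood at 5336 ± 1003 and 4072 ± 929 (-0.39, SE 0.15). Cox6b1, which bridges the monomers on the outer face, ran from 9407 through 11460 to 14334 in wt and from 7339 through 8946 to 11320 in mCAT (-0.33, SE 0.12), and all 6 mCAT partners were lower. Cox7c gave 4408 ± 855 and 3507 ± 643 (-0.32, SE 0.14).

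The other ubiquitous subunits of complex IV had estimates nearer to 0. Cox4i1 averaged 16281 ± 2420 in wt and 13727 ± 2538 in mCAT (log2 difference -0.25, interval -0.55 to 0.04), Cox5b -0.23, Cox5a -0.18 and Cox6a1 -0.17 (6939 ± 805 and 6188 ± 950). Cox8a was nearest to 0 among the ubiquitous subunits, 10898 ± 704 and 10118 ± 1189 (-0.11, interval -0.33 to 0.10). The alternative isoforms were measured at 14.5 to 55.0 normalised counts on average, where the deposited scale compresses differences. Cox7a1 averaged 55.0 ± 17.98 in wt and 40.5 ± 17.2 in mCAT (-0.18), Cox6a2 30.5 ± 16.7 and 20.2 ± 12.1 (-0.17), Cox6b2 37.2 ± 10.1 and 31.5 ± 17.5 (-0.10), and Cox4i2 18.8 ± 8.4 and 14.5 ± 7.1 (-0.10). Cox7a2l, which tethers complex III to complex IV in supercomplexes, averaged 8664 ± 2785 and 7851 ± 2191 (-0.13, interval -0.53 to 0.28).

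**Figure D2:**
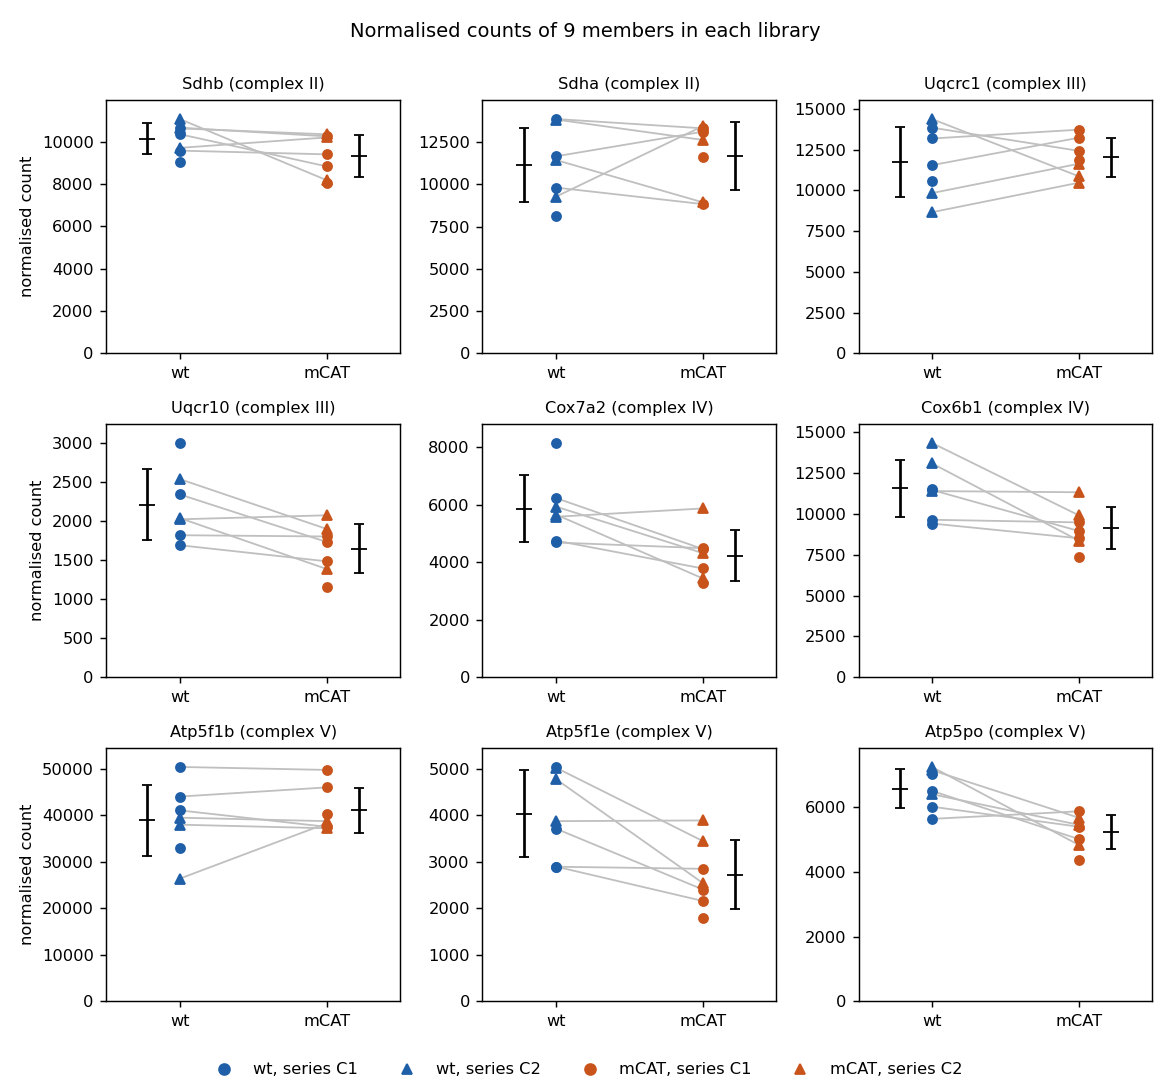
Normalised counts (vertical axes, from 0) of 9 members in the 7 wt and 7 mCAT libraries; grey lines join libraries that share a code stem, symbols give the code series, and the bars beside the points are mean ± SD. The groups of Atp5f1b, Uqcrc1 and Sdha cover each other, while in Cox7a2 6 and in Atp5po 5 mCAT libraries lie below the lowest wt library.

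In complex V the catalytic head had estimates near 0 and the smaller parts stood lower in mCAT, again without passing the test. Atp5f1b averaged 38872 ± 7706 in wt and 41094 ± 4848 in mCAT (log2 difference 0.10, interval -0.20 to 0.40), and Atp5f1a, the alpha subunit, 19190 ± 3886 and 19382 ± 3150 (0.02, interval -0.28 to 0.33). Of the central stalk, which turns inside the head, Atp5f1c stood at -0.19 and Atp5f1d at -0.06. Atp5f1e, the epsilon subunit at its foot (ENSMUSG00000016252, chromosome 2), had the lowest estimate of all members. Its wt values ran from 2894 through 3874 to 5040 and its mCAT values from 1781 through 2542 to 3889. There were 5 mCAT libraries below the lowest wt library, while mCAT 5 and mCAT 7 lay among the wt values. The log2 difference was -0.55 (SE 0.17, limma adjusted p = 0.854), and -0.41 with the block (adjusted p = 0.310).

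The peripheral stalk holds the head still against the rotor. Atp5po, the oligomycin sensitivity conferring protein at its top (ENSMUSG00000022956, chromosome 16), had the smallest unadjusted p of the members in the fit without the block. It ran from 5637 through 6502 to 7242 in wt and from 4362 through 5393 to 5871 in mCAT, and the groups overlapped only through wt 2, mCAT 1 and mCAT 7. Its log2 difference was -0.32 (SE 0.10, limma adjusted p = 0.794), and with the block -0.27 (adjusted p = 0.445), where Atp5f1e had the smallest p. Atp5pd stood at -0.24, Atp5pf at -0.20 and Atp5pb at -0.11. The membrane accessory subunits help the synthase to form dimers that bend the cristae. Atp5mk averaged 3683 ± 997 and 2626 ± 649 (-0.46, SE 0.17), Atp5mj 4107 ± 1104 and 3005 ± 642 (-0.42, SE 0.16) and Atp5mf 3010 ± 514 and 2341 ± 399 (-0.35, SE 0.13). Atp5mg stood at -0.36 and Atp5me at -0.28. The c subunit genes Atp5mc3 (-0.23), Atp5mc1 (-0.21) and Atp5mc2 (-0.14) had an unadjusted p above 0.05. Atp5if1, whose product stops the synthase from running backwards and burning ATP, averaged 4072 ± 1028 in wt and 3108 ± 520 in mCAT (-0.36, SE 0.15), lower in 6 of 6 pairs.

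The difference was carried unequally by the libraries. For each library the median over the 47 members of the log2 value minus the gene's own mean was taken. In wt it ran from -0.04 through 0.14 to 0.25 and in mCAT from -0.37 through -0.11 to 0.11. The lowest medians belonged to mCAT 3 (-0.37), which has no partner, and mCAT 6 (-0.27). In mCAT 3, 24 members had their lowest value and in mCAT 6, 11 had theirs, whereas 15 members had their highest in wt 7 and 9 each in wt 1 and wt 6. Between partners the median differed by -0.46 in C2_2, -0.27 in C1_5 and -0.26 in C2_4, but by only -0.07 in C1_3, -0.04 in C1_2 and 0.01 in C2_1. Without mCAT 3, 9 members had an unadjusted p under 0.05 in place of 19. In libraries of series C1 alone 10 did and in those of C2 alone 1, with medians over members of -0.21 and -0.22. Shares over all genes are not given for these smaller fits, so fewer changed members and less power cannot be told apart. The median of complex II was lower in mCAT in 2 of 6 pairs, and those of complexes III, IV and V in 5 of 6 each. Several of these signs rest on values near 0. In C1_2 complex II differed by 0.011, complex III by -0.0063, complex IV by -0.016 and complex V by -0.010. In C2_1 complex III differed by -0.0032, and in C2_2 complex II by 0.00105.

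**Figure D3:**
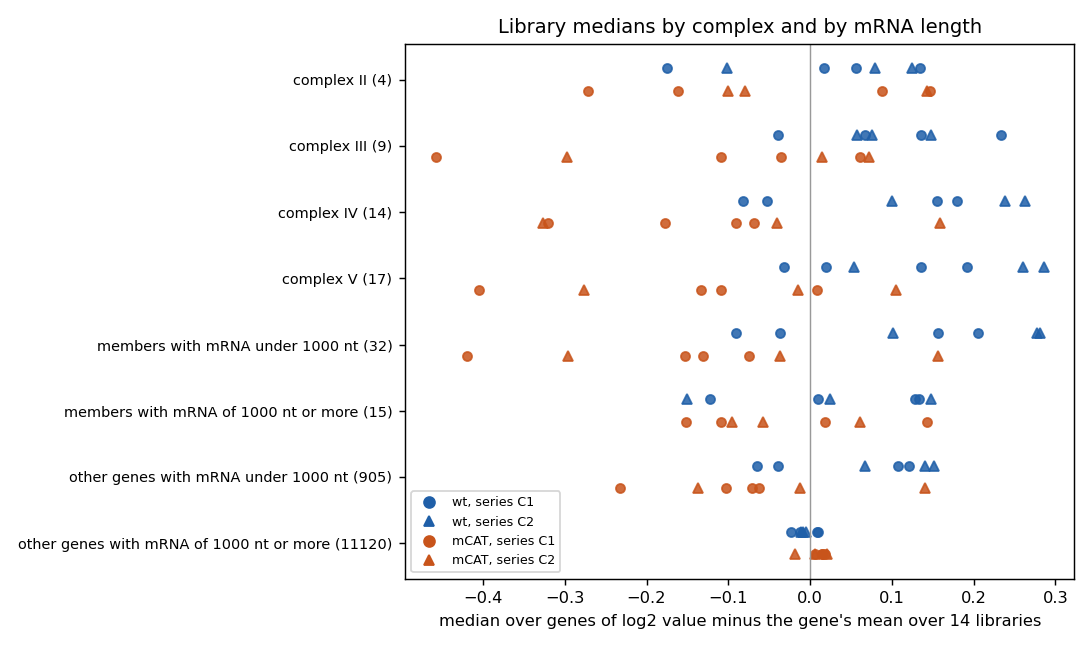
Median over the genes of a group of the log2 value minus the gene's mean over 14 libraries (horizontal axis), with 1 point per library, coloured by genotype and shaped by code series; the number of genes stands in parentheses. In complexes III, IV and V, mCAT 3 and mCAT 6 lie lowest, and the same libraries are lowest among the other genes with mRNA under 1000 nt.

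mRNA length moved with the difference. All 32 tested members with an mRNA under 1000 nt had an estimate below 0, with a median of -0.28, and 18 of them had an unadjusted p under 0.05. Of the 15 longer members 9 were below 0, with a median of -0.06 and 1 such p. Among the 905 other genes under 1000 nt 83.2% were below 0, with a median of -0.14 and 14% at an unadjusted p under 0.05 in that direction. Among the 11120 longer ones 47.4% were below 0 (median 0.01, 1.99%). Small subunits, which make up most of complexes III to V, are encoded by short mRNAs, and the 2 shorter mRNAs of complex II, Sdhb and Sdhd, also had its lower estimates. Of the 4 members of 2000 nt or more only Cycs lay below 0 without the block, and with it Atp5f1a did too (-0.02). Cycs has a coding sequence of 315 nt in an mRNA of 3123 nt. Sdhc has one of 507 nt in an mRNA of 3171 nt and lay above 0 (0.05). Spearman's rho between length and difference was 0.64 over the 47 members (0.76 for coding length) and 0.16 over 12072 genes. Length also moved with the difference between code series (C2 minus C1), with a rho of -0.55 over the members (-0.45 for coding length) and -0.07 over 12072 genes. These values describe genes that share the same 14 libraries. The part of length in the genotype difference was not tested. By library, other short genes were also lowest in mCAT 3 (-0.23) and mCAT 6 (-0.14), and the pairs C1_2, C1_3 and C2_1 differed least for them too.

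**Figure D4:**
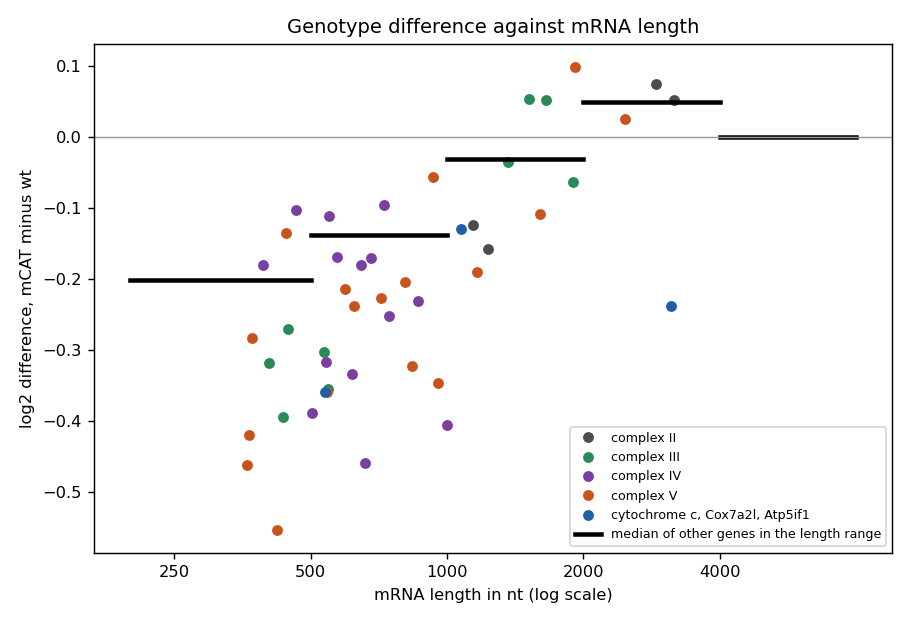
Log2 difference between mCAT and wt (vertical axis) against mRNA length in nt (log axis) for the 47 members, coloured by complex; black bars are medians of the genes outside the members within each length range. Members under 1000 nt all lie below 0. The medians of other genes are -0.20 under 500 nt, -0.14 from 500 to under 1000 nt and -0.03 from 1000 to under 2000 nt. They are 0.05 from 2000 to under 4000 nt and -0.0009 at 4000 nt or more, so they do not rise steadily with length.

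Other genes of respiration, none of which passed an adjusted p of 0.05 in either fit, were set beside the members. Of 36 nuclear subunits of complex I 33 were below 0, with a median of -0.24. An unadjusted p under 0.05 was reached by 15, all lower in mCAT, as it was by 3.03% of all genes in that direction. Of the assembly factors, those of complex II stood at -0.12 (4 of 4 below 0), of complex III at -0.21 (8 of 9), of complex IV at -0.14 (16 of 22) and of complex V at -0.03 (3 of 5). Uqcc2, which is needed to make cytochrome b, averaged 854 ± 161 in wt and 632 ± 122 in mCAT (-0.38, SE 0.13). Lrpprc, which stabilises mitochondrial mRNAs, lay on the other side with 621 ± 137 and 889 ± 293 (0.42, SE 0.17). The 6 mitochondrially encoded subunits of complexes III to V had a median of -0.45 (-0.21 with the block) and none with an unadjusted p under 0.05. Their library median was 1.35 in wt 1 and -1.10 in mCAT 4, and between -0.54 and 0.64 in the others. The 13 regulators, among them Nrf1, Gabpa, Esrra and Tfam, had a median of -0.01. Outside respiration, 82 of 83 genes of cytosolic ribosomal proteins had estimates below 0 (median -0.28).

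Of the marker lists, that of macrophages had the highest sum in every library. All 10 of its genes were present, with summed normalised counts of 1023000 to 4474000 in wt and 857200 to 3526000 in mCAT, most of it Lyz2. This sum was lower in mCAT in 4 of 6 pairs. The median log2 difference of the 10 genes was 0.27, with 7 of 10 above 0, opposite in sign to that of the members. None passed the limma test without the block, and with it 1 did, the chemokine receptor gene Ccr2 (-0.80, Benjamini-Hochberg adjusted p = 0.00587), the locus that carries creERT2 in mCAT. Sums of the 9 T cell markers with a row were 247 to 1029 in wt and 162 to 409 in mCAT and lower in mCAT in 6 of 6 pairs, and Cd8a was at 0 in some libraries. Neuronal sums, 168 to 542 in wt and 133 to 636 in mCAT, were lower in mCAT in 5 of 6 pairs, all but C2_1, and natural killer cell sums, 93.2 to 383 and 50.6 to 149, in 4 of 6. The part of these markers in the members' difference was not tested. Neutrophil sums went the other way in 5 of 6 pairs, with 5801 to 24750 in wt and 6382 to 36080 in mCAT, which overlapped. Most of the neutrophil sum was Mmp8, with means of 7438 in wt and 11060 in mCAT. The next largest, S100a8, was lower in mCAT (3281 in wt and 2807 in mCAT). Of the 4 neutrophil markers tested, 0 passed the limma test without the block and 1 did with it. Microglial sums, 21010 to 84750 in wt and 30990 to 85920 in mCAT, were higher in mCAT in 4 of 6 pairs. B cell, dendritic cell, endothelial, astrocyte and oligodendrocyte sums overlapped between genotypes.

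Between the code series, 1 of 47 members passed the test, Cox7a2l, which is near the share over all genes. In a limma fit with genotype as a covariate and the stem as a random block, 328 of 12096 genes (2.71%) had an adjusted p under 0.05. The 1 member lay in the direction higher in C2 (1.6% of all genes). Cox7a2l (ENSMUSG00000024248, chromosome 17) averaged 6693 ± 548 in the 8 C1 libraries and 10343 ± 2444 in the 6 C2 libraries, a log2 difference of 0.59 (SE 0.15, Benjamini-Hochberg adjusted p = 0.0363). The gain came from 2 of the 3 C2 stems: C2_2 gave 11781 in wt 6 and 10326 in mCAT 6, and C2_4 gave 13546 in wt 7 and 11430 in mCAT 7. In C2_1 the values were 7327 and 7651, just above the C1 range of 5895 to 7282. On simulated data this fit made more false calls than its threshold allows. The call is sensitive, since the adjusted p reached 0.05 or more in 9 of 14 fits that left out 1 library (0.0125 to 0.0868 over all 14), and it was 0.152 over stem means.

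**Figure D5:**
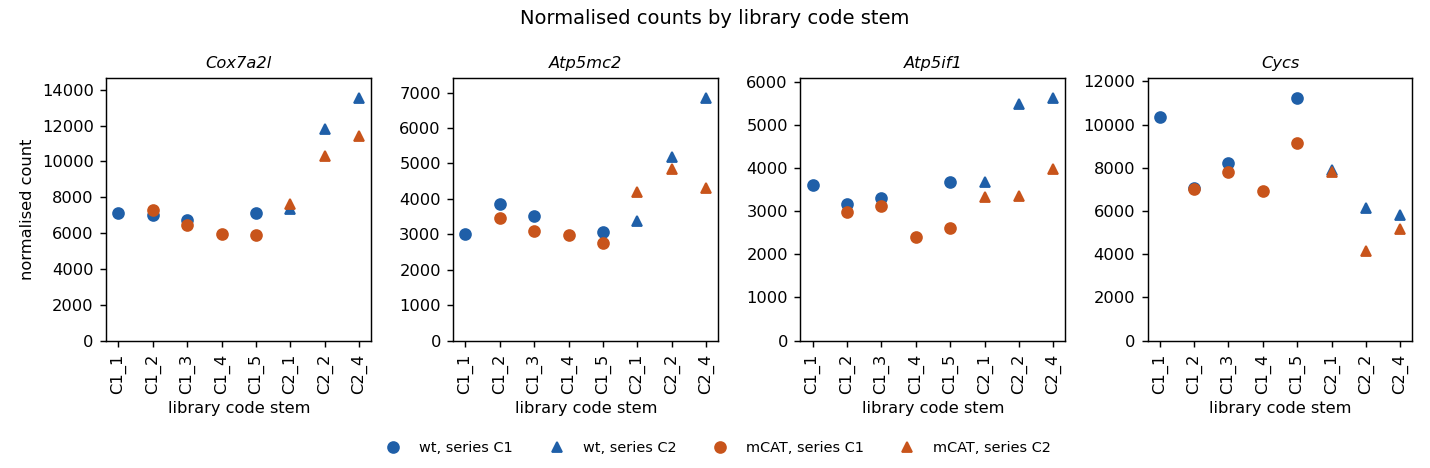
Normalised counts (vertical axes, from 0) of 4 members by library code stem, with wt in blue and mCAT in orange, circles for series C1 and triangles for C2. Cox7a2l and Atp5mc2 are highest and Cycs is lowest in stems C2_2 and C2_4, in both genotypes, except that in Atp5mc2 mCAT 5 of stem C2_1 lies close to mCAT 7.

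Other members did not pass between series, and 10 had an unadjusted p under 0.05 (17.1% of all genes), 8 of them higher in C2 (9.09%) and 2 lower (8.01%). Atp5mc2 averaged 3220 ± 366 in C1 and 4790 ± 1179 in C2 (log2 difference 0.54, limma adjusted p = 0.0830), again highest in wt 6, mCAT 6 and wt 7 (5178, 4831 and 6850). Atp5if1 averaged 3105 ± 443 and 4236 ± 1045 (0.42, adjusted p = 0.125). Cycs stood lower, 8472 ± 1625 against 6169 ± 1476 (-0.46, adjusted p = 0.143), and its stem means ran from C1_5 at the top to C2_2 at the bottom, 0.99 apart on the log2 scale. Cyc1 was also on the lower side (6193 ± 556 and 4956 ± 830, -0.31), while Uqcrh (0.40), Atp5mj (0.42), Cox4i1 (0.33) and Cox7a1 (0.31) were on the higher. Complex II had estimates near 0 between series: Sdha, Sdhb, Sdhc and Sdhd differed by 0.06, 0.09, 0.05 and 0.05. The median over members was 0.09. No change of the genotype difference with the series was detected: in the interaction test 0 of 12096 genes passed in limma, 339 (2.8%) had an unadjusted p under 0.05, and 0 members did.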

How the data were processed

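Libraries were grouped by donor genotype from their titles. The submitters' processing notes name FastQC, fastp, Salmon and GRCm39, and no versions. The values the authors deposited carry the title of raw counts but lie on a log2 scale and look like counts after variance stabilisation: all 14 libraries share a lowest value of 5.9641 and none holds whole numbers. Undoing it with the constant 249.7 gave the normalised count. Estimated depth was 16.6 to 47.0 M reads, M for mega (mCAT 27.6 to 47.0), from the size of 1 read in low values, of which 53.1% to 73.1% lay within 0.15 of a whole number (chance gives 30%), so whole reads were not recovered. Depth covers counting error only.

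limma 3.58.1 (R 4.3.3, statmod 1.5.0, trend and robust moderation, 2-sided, Benjamini-Hochberg over 12096 genes, threshold 0.05) was run on the deposited values of genes with a normalised count of at least 10 in at least 7 libraries, and tested on simulated data, where the code series fit made more false calls than its threshold allows. Deviations from group means correlated between partners of all 6 stems (0.232 to 0.659), and 5 of 6 were mutual best matches. Stems were therefore used for the pair counts and as a block in an alternative fit. The block was a fixed effect, so wt 1 and mCAT 3, each alone in its stem, do not inform the genotype estimate of that fit. The chosen genotype fit has no block, so its SE, intervals and p-values ignore this pairing. For title numbers 1 to 3 the correlations were -0.294, 0.158 and 0.252, and title numbers were not taken as pairs. mRNA lengths are those of the shortest principal transcript in GENCODE M21 (GRCm38). Of the members, 6 have principal transcripts that differ in length by over 1.5 times.

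The members, lists and tests were chosen with earlier results of these data known. Genes were named if they had 1 of the 5 smallest p-values of their complex, its highest or lowest level per kilobase, or 1 of its 3 smallest p-values between code series, or if they were alternative isoforms, Atp5if1 or called. Other subunits were named after their values were seen, to complete each complex. Alternatives covered the block, scale, filter, scaling, moderation, covariate, series and left-out libraries.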

Additional observations from a re-analysis of the deposited data

Results flagged for a closer look

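Among 80 groups of 7 libraries (40 members, each genotype), 2 had a library set apart from the rest by a gap beyond Dixon's 95% critical value, where chance gives about 1 in 20 groups. Both are alternative isoforms of complex IV near the low end of the scale. Cox6a2, the heart and muscle subunit 6A, stood at 46.2 normalised counts in mCAT 6 and between 10.8 and 21.4 in the other mCAT libraries. Its wt partner, wt 6, also had the highest wt value of 62.0. Cox6b2, the testis subunit 6B, stood at 69.2 in mCAT 5 and between 18.4 and 33.0 in the others.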

How the results depend on the processing

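The number of members called between genotypes was 0 in the chosen fit and in all 32 alternatives. Genes called numbered 24 in the chosen fit, 25 with the title number as a replicate block, 39 with the stem as a replicate block, 40 with that block and centring (added after seeing the data), 15 in C1 and 9 in C2 libraries alone. Leaving out 1 library gave 18 to 25, and leaving out 1 stem under the block (also added) 28 to 37. Members with an unadjusted p under 0.05 numbered 19, 24 with the title number as a block, 13 with the stem block, 10 in C1 and 1 in C2 alone, 9 to 20 without 1 library and 11, 7, 7 and 6 without stem C1_3, C1_5, C2_2 or C2_4 (14 and 22 without C1_2 or C2_1). The median over members was -0.24 to -0.11 across all of these, the last without stem C2_2. That of complex III was -0.143, -0.0917 and -0.17 without C1_5, C2_2 or C2_4. For the counts at an unadjusted p, shares over all genes are given only for the chosen fit and the stem block. All reversals were uncalled. Near 0 were Cyc1 -0.0129 in C1 alone and Sdha -0.0191 with block and centring. Under the block, also near 0, were Sdha -0.0321 without C1_3, Atp5f1b -0.0284 and Uqcrc1 -0.0128 without C2_2, and Uqcrc1 -0.00671 without C2_4. Further from 0 was Sdha under the block without C2_2, at -0.105. Its estimate was 0.0737 in the chosen fit and 0.0013 with the stem block. Leaving out 1 library moved Cyc1 from -0.0138 to 0.117 and Uqcrc1 from -0.0162 to 0.104.

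Between series, 328 genes were called: 51 over stem means, 903 with no block, 15 in wt and 81 in mCAT libraries alone, and 186 to 507 without 1 library. Members called numbered 1, against 0 over stem means and in wt or mCAT alone, 4 with no block (Cox7a2l, Atp5if1, Atp5mc2 and Uqcrh) and 0 to 2 without 1 library. Members at an unadjusted p under 0.05 numbered 10 (17.1% of all genes), 3 in wt alone and 5 to 12 without 1 library, where shares over all genes are not given. Sdhd (-0.00785, wt alone) and Sdhc (-0.0111, mCAT alone; -0.0121 to 0.0871 without 1 library) changed sign near 0. The causes were not tested.

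The deposited scale compresses differences, most at low counts (Cox7a1 was -0.18 on it and -0.46 on log2(normalised count + 1)), and the lowest depth, that of wt 7, limits the alternative isoforms most.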
